A study of Homo sapiens with 16 samples.

Results

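The comparison described here set both catalase-transfected clones of A375 cells, A7 and G10, against both control lines, A375 and PCDNA3. A375 is a human amelanotic melanoma line, used untransfected. PCDNA3 is A375 carrying the empty pcDNA3 vector, and A7 and G10 are A375 carrying the same vector with the human catalase cDNA. Stable transfectants were selected with geneticin at 1500 µg/ml and then kept in geneticin at 700 µg/ml, which is not stated for A375. A7 and G10 were each raised by clonal dilution, so each stands for 1 clone, and the sources used here do not say whether PCDNA3 is a clone or a pool. For each line 4 arrays (Affymetrix Human Gene 1.0 ST) were hybridised, stated to be biological replicates. The comparison therefore held 8 clone arrays and 8 control arrays, which are all 16 arrays of the series, and 33297 transcript clusters, the units in which this array measures genes.

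The question was which changes the clones have in common. The mean of the line means of A7 and G10 was compared with that of A375 and PCDNA3 on the deposited log2 scale, where 1 unit is a 2-fold change. A cluster was counted as changed at an adjusted p under 0.05, and as shared when A7 and G10 also lay on the same side of the control average. Because both clones were set against the same control arrays, each shared change was tested again with separate controls. In 1 pairing A7 was compared with A375 and G10 with PCDNA3, and in the other A7 with PCDNA3 and G10 with A375. A change that passed in the same direction in all 4 of these line-against-line tests is called held below. Olfactory receptor genes were taken as unexpressed, and 95% of their 381 clusters lay under 5.18, which serves here as the level of unexpressed genes. If either side had a mean under this level, only a minimum can be given for the change ("at least"), and the measured difference follows it.

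Catalase converts hydrogen peroxide to water and oxygen, mostly in peroxisomes. Hydrogen peroxide is both a damaging oxidant and a signal that modifies cysteines of kinases, phosphatases and transcription factors, and peroxiredoxins and glutathione peroxidases remove it as well. Melanocytes descend from the neural crest and make melanin, a synthesis that itself gives rise to hydrogen peroxide, and melanoma cells can lose or regain this programme.

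CAT, the transfected gene, did not mark the arrays labelled as catalase clones. Its log2 values were 8.64, 9.03, 8.65 and 8.62 in A375, 8.51, 8.51, 8.53 and 8.71 in PCDNA3, 9.02, 8.92, 9.12 and 9.02 in A7, and 8.51, 8.55, 7.74 and 8.27 in G10. The A7 arrays were among the highest, whereas the G10 arrays lay within or below the control range, so clone and control arrays overlapped. The clones together differed from the controls by -0.01 (SE 0.11, adjusted p = 0.983), with 0.37 in A7 and -0.38 in G10, and G10 and A7 differed by -0.75 (adjusted p = 0.00221). The directions below are therefore those of the arrays labelled A7 and G10, and CAT transcript does not check the label of G10. Whether the probes for CAT read the transcript of the transfected cDNA is not known from the sources used here, so these values may not include it.

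Of the 33297 clusters, 3623 (10.9%) were changed in the clones together, 2116 (6.35%) higher and 1507 (4.53%) lower. Of these, 3107 (9.33%) were shared, 1789 (5.37%) higher and 1318 (3.96%) lower, and in 516 the clones lay on opposite sides of the controls. In 597 of the 3107 each clone by itself also passed against the control average, so a shared change can lie mostly in 1 clone. With A7 against A375 and G10 against PCDNA3, 197 shared clusters (0.592%) passed as higher and 125 (0.375%) as lower. With the control lines exchanged, 242 (0.727%) passed as higher and 126 (0.378%) as lower. Held in both pairings were 205 clusters (0.616%), 133 (0.399%) higher and 72 (0.216%) lower. In 120 of the 133 every clone array lay above every control array, and in 65 of the 72 every clone array lay below, where such separation was found for 261 (0.784%) and 186 (0.559%) of all clusters.

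The clusters that passed as higher in both lines of a pairing were a minority of each clone's own changes. With A7 against A375 and G10 against PCDNA3, they were 23.9% of the 824 clusters (2.47% of all) higher in A7 and 7.01% of the 2811 (8.44% of all) higher in G10, and 141 of the 824 were lower in G10 in place of higher. Those lower in both were 22.2% of 564 (1.69% of all) for A7 and 5.36% of 2334 (7.01% of all) for G10. PCDNA3 and A375 themselves differed in 41 clusters (0.123%), and G10 and A7 in 5065 (15.2%). Among the 205 held clusters 2 differed between the control lines, and 46 differed in size between the clones, 31 with the larger change in G10 and 15 in A7. The replicate arrays measure the spread within a line, and the clones are only 2 lines against 2. When each line entered as 1 mean no cluster passed (0 of 33297, lowest adjusted p = 0.17, with 1827 at an unadjusted p under 0.05, among them 202 of the 205), and the smallest two-sided p that an exact permutation of 4 lines allows is 0.333. With the line as a random block, which allows arrays of 1 line to be alike (correlation 0.147), 293 clusters were called higher and 175 lower, among them 204 of the 205 held clusters, all but H1-5. The held clusters were chosen from the same arrays, so neither these counts nor the separation above is an independent check. The random-block fit is called the block below. Its adjusted p follows a gene that is given with an adjusted p and whose call it ends. It also ended the calls of TWIST1, ORC1, MCM7, EHHADH, PEX6, MT2A, MTSS1, RDX, DIAPH3, FZD7 and WNT5A, given below without one. Their adjusted p with the block ran from 0.0583 (TWIST1) to 0.293 (ORC1).

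**Figure D1:**
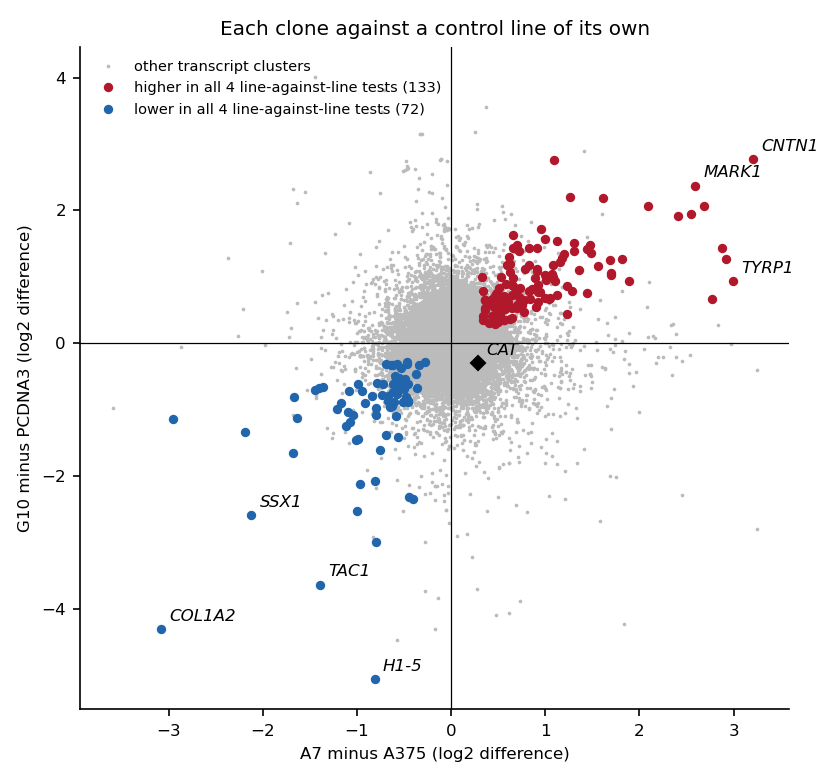
Each point is 1 transcript cluster, with the log2 difference of A7 from A375 on the horizontal axis and of G10 from PCDNA3 on the vertical axis, so that no array enters both axes. The 133 clusters held as higher (red) fill the upper right and the 72 held as lower (blue) the lower left, and CAT (black diamond) lies near the origin with opposite signs in the clones.

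The held clusters with 1 gene symbol came from 109 genes that rose and 51 that fell. The 4 largest rises by measured difference, in CNTN1, MARK1, SH3BGRL2 and LIMCH1, started from control means below the level of unexpressed genes. CNTN1 encodes contactin 1, an adhesion molecule of neurons anchored to the membrane. The log2 values of the arrays were 4.01, 3.93, 3.97 and 4.39 in A375, 3.37, 3.91, 4.24 and 3.48 in PCDNA3, 7.44, 7.69, 7.29 and 6.71 in A7, and 7.60, 7.79, 5.23 and 5.49 in G10. All 8 clone arrays lay above all control arrays, which were all under 5.18, but G10 replicates 3 and 4 were more than 2 units below replicates 1 and 2. CNTN1 rose by at least 1.73 (measured difference 2.99, SE 0.33, adjusted p = 2.01e-05), with at least 2.11 (measured 3.37) in A7 and at least 1.35 (measured 2.61) in G10. Its relative CNTN3 rose as well, by at least 0.32 (measured difference 1.47, SE 0.14, adjusted p = 5.82e-06).

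The promoter of CNTN1, the 250 bases before the RefSeq start site, is shown because this was the largest held rise by measured difference. Its minimum was smaller than those of MARK1 and SH3BGRL2. It lies on the plus strand of GRCh38.p14 at chr12:40827934-40828183 and held none of the motifs named below.
CNTN1: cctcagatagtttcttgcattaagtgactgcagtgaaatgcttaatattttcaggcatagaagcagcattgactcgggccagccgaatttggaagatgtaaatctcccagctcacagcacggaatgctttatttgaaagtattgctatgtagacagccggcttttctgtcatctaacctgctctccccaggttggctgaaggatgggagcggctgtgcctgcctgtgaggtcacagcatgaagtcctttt

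MARK1, a kinase that phosphorylates microtubule-associated proteins, changed more evenly. Its log2 values were 4.48, 4.86, 4.85 and 4.70 in A375, 4.89, 4.89, 4.85 and 4.99 in PCDNA3, 7.30, 7.59, 7.32 and 7.06 in A7, and 7.29, 7.14, 7.61 and 7.07 in G10. The clones did not overlap the controls, and the A7 and G10 arrays covered the same range. It rose by at least 2.12 (measured difference 2.48, SE 0.09, adjusted p = 2.69e-10), with at least 2.14 (measured 2.50) in A7 and at least 2.10 (measured 2.46) in G10, and the largest adjusted p of the 4 line-against-line tests was 3.06e-08. SH3BGRL2, a small thioredoxin-fold protein, was between 4.93 and 5.22 in the control arrays and between 6.40 and 8.09 in the clone arrays. It rose by at least 2.27 (measured difference 2.38, SE 0.14, adjusted p = 4.19e-08). IL7, the interleukin that sustains lymphocyte growth, was below 5.18 in all control arrays, at 3.78 to 4.11, and at 5.36 to 6.72 in the clones, a rise of at least 0.87 (measured difference 2.08, SE 0.15, adjusted p = 3.64e-07). LIMCH1, an activator of non-muscle myosin, rose by at least 1.49 (measured difference 2.16, SE 0.13, adjusted p = 3.74e-08), and the measured difference in A7, 2.84, was larger than that in G10, 1.47 (adjusted p of the difference = 5.83e-05).

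The other rises of the 15 that were largest against the nearest control line were between 1.33 and 1.90. AZGP1, a secreted zinc-binding glycoprotein that mobilises lipid, rose by 1.90 (SE 0.20, adjusted p = 1.03e-05). Its G10 arrays ran from 7.41 to 8.97 and its A7 arrays from 7.49 to 7.72, above 5.74 to 6.30 in the controls. TCF4, a basic helix-loop-helix transcription factor of the E protein family, rose by 1.48 (SE 0.10, adjusted p = 1.25e-07), from 5.09 to 5.59 in the control arrays to 6.44 to 7.24 in the clone arrays. CDYL2, a chromodomain protein, rose by 1.44 (SE 0.10, adjusted p = 2.5e-07). FGF14, a regulator of sodium channels, and CLYBL, a mitochondrial citramalyl-CoA lyase, both on chromosome 13, rose by at least 0.56, measured 1.35 and by 1.40. LHFPL6 (1.55), ELAPOR2 (1.74), AIG1 (1.42), LANCL3 (at least 0.27, measured 1.36) and PCDHB8 (1.33) complete the 15. In AIG1 alone of the 15 the clone and control arrays overlapped.

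FGF14 is shown for the 2 matches to TGACNNNGC, the core of the antioxidant response element that NRF2 binds, and 1 match to CACGTG, the E-box, in its promoter on the minus strand at chr13:102402444-102402693 (GRCh38.p14). Matches on either strand are in capitals.
FGF14: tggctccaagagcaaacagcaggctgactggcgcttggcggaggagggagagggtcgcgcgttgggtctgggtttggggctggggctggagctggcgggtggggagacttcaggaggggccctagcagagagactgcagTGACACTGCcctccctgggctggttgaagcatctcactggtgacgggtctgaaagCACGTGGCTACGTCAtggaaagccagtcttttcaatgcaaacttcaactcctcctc

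The largest held fall was in a matrix gene. COL1A2 encodes the alpha 2 chain of collagen I. Values on the log2 scale were 10.23, 10.18, 9.26 and 9.24 in A375, 9.79, 10.69, 9.40 and 10.25 in PCDNA3, 7.13, 7.20, 6.19 and 6.06 in A7, and 5.79, 5.79, 5.63 and 5.74 in G10. The lowest control array, 9.24, was 2.04 units above the highest clone array, 7.20. It changed by -3.69 (SE 0.22, adjusted p = 4.33e-08), with -3.23 in A7 and -4.14 in G10. No other collagen chain of the 43 measured was held. COL5A2 changed by -0.51 (SE 0.12, adjusted p = 0.0109, and adjusted p = 0.125 with the block) and COL4A5 rose by at least 0.27, measured 0.62.

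SSX1, a cancer-testis antigen that represses transcription and is otherwise expressed in the testis, fell close to the level of unexpressed genes. The log2 values were 7.52, 7.52, 7.24 and 7.64 in A375, 7.36, 8.04, 7.83 and 7.14 in PCDNA3, 5.64, 5.72, 5.2 and 4.86 in A7, and 5.12, 4.75, 4.91 and 5.25 in G10. Every clone array was at most 5.72 and every control array at least 7.14. The change was -2.35 (SE 0.15, adjusted p = 6.47e-08), with -2.18 in A7 and at least 2.34 (measured -2.53) in G10. SSX genes are nearly identical copies, so their probes may not tell them apart, and 4 of the 7 measured were shared falls, among them SSX7 (at least 0.35, measured -1.02). NEFH, the heavy chain of neurofilaments, behaved in the same way with 6.46 to 7.0 in the control arrays and 4.71 to 5.38 in the clone arrays, a change of at least 1.53 (measured difference -1.67, SE 0.10, adjusted p = 4.19e-08).

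TAC1, the precursor of the neuropeptides substance P and neurokinin A, fell in both clones to different depths. Its log2 values were 9.77, 9.06, 10.08 and 9.87 in A375, 9.68, 10.14, 10.26 and 9.78 in PCDNA3, 8.17, 7.97, 8.45 and 8.59 in A7, and 5.81, 5.72, 7.25 and 6.57 in G10. A7 lay between the controls and G10, and no groups overlapped. It changed by -2.51 (SE 0.21, adjusted p = 1.34e-06), with -1.53 in A7 and -3.49 in G10, and the clones differed by -1.96 (adjusted p = 0.000219). H1-5, a linker histone, had the widest gap between the clones among the 30 held genes of the largest changes. On the log2 scale its arrays read 10.49, 9.84, 10.21 and 10.07 in A375, 10.06, 10.22, 10.42 and 10.04 in PCDNA3, 9.15, 9.24, 9.48 and 9.49 in A7, and 5.28, 5.17, 5.03 and 5.08 in G10. The A7 arrays lay just under the controls and the G10 arrays near the level of unexpressed genes. The combined change was -2.93 (SE 0.09, adjusted p = 5.37e-11, and adjusted p = 0.0516 with the block), with -0.83 in A7 and at least 4.97 (measured -5.03) in G10.

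TAC1 and SSX1 are shown for their single matches, CACGTG in the promoter of TAC1 at chr7:97731836-97732085 on the plus strand and TGACNNNGC in that of SSX1 at chrX:48255142-48255391 on the plus strand (GRCh38.p14).
TAC1: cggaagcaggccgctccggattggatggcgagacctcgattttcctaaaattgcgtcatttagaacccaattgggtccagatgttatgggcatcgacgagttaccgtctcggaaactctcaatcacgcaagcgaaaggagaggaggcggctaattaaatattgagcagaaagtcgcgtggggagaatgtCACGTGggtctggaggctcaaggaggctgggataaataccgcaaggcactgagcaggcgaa
SSX1: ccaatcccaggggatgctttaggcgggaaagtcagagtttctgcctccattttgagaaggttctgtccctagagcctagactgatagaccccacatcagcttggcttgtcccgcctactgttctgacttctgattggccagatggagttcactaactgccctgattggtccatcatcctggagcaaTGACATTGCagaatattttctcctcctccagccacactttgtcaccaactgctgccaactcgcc

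Among the other held falls were several secreted or signalling proteins. TAFA2, a secreted protein of the brain, changed by -1.76 (SE 0.12, adjusted p = 1.25e-07), and EFNB2, the ephrin ligand of EPHB receptors, by -1.44 (SE 0.11, adjusted p = 5.08e-07). ANGPT1, a ligand of the endothelial receptor TIE2, changed by -1.18 (SE 0.14, adjusted p = 3.52e-05). HGF, the ligand of the receptor MET, lay at 4.37 to 5.87 in the control arrays and at 3.93 to 4.51 in the clone arrays, a change of at least 0.08 (measured difference -1.06, SE 0.16, adjusted p = 0.000477), so that most of its fall lies under the level of unexpressed genes. PI15, a secreted peptidase inhibitor, changed by -1.23 (SE 0.12, adjusted p = 8.35e-06). ELMO1, which with DOCK proteins activates RAC, fell in both of its clusters, by 1.09 and by 1.03. ZNF701 (at least 0.55, measured -1.38), ZNF724 (at least 1.16, measured -2.04), TRIML2 (-1.76) and COCH (at least 0.57, measured -0.88) complete the 15.

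**Figure D2:**
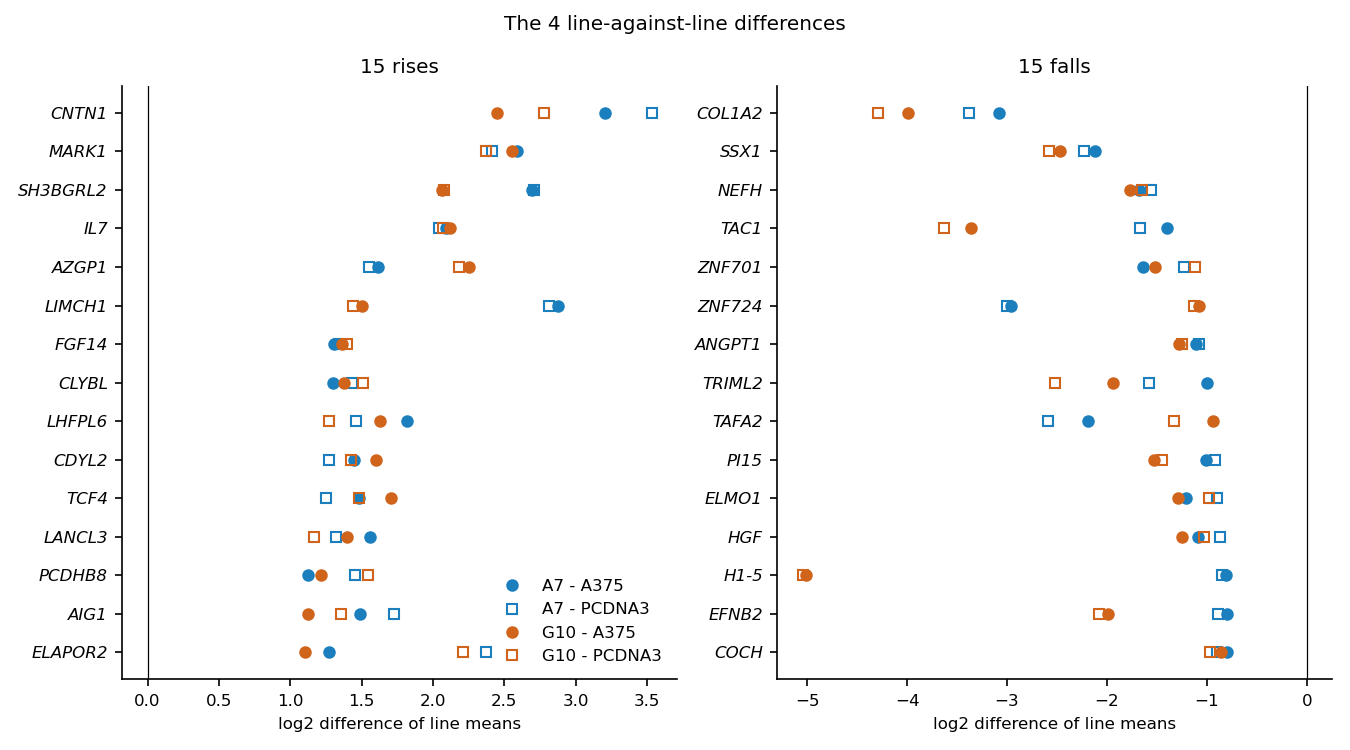
Log2 differences of line means, on the horizontal axis, for the 15 held rises (left) and 15 held falls (right) that were largest in their smallest line-against-line difference. Blue marks A7 and orange G10, filled circles are differences from A375 and open squares from PCDNA3; the clones lie apart in LIMCH1, TAC1, ZNF724 and H1-5, and close together in MARK1, FGF14, NEFH and COCH.

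In parentheses after the count of a gene list stand the percentages of its genes that were shared rises and shared falls, to be read against 7.48% and 5.17% of all 18417 genes, and the numbers called higher and lower with the block, which were 233 and 134 of all genes. Protocadherins had 9 held rises. They are cell-surface cadherins, and the alpha, beta and gamma genes lie side by side on chromosome 5, where each neuron turns on a few of them. Of 68 cadherin and protocadherin genes 26 were shared rises and 1 was a shared fall (38.2% and 1.47%, block 13 and 0), and 9 were held rises (0.592% of all genes). The list leaves out 2 pseudogenes, which are counted with the families below. Of 18 protocadherin beta genes, 2 of them pseudogenes, 15 were shared rises and 9 were held. Their median change was 0.97, with medians of 0.73 in A7 and 1.30 in G10. In 14 of the 18 genes G10 replicates 1 and 2 both lay above replicates 3 and 4, and the median over the genes was 1.49 and 1.5 in the former and 1.14 and 1.0 in the latter. None of the 11 protocadherins outside these clusters and 1 of 21 cadherins with a CDH symbol was a shared rise.

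PCDHB5 had the largest change. The arrays gave log2 values of 8.48, 8.45, 8.45 and 8.58 in A375, 8.28, 8.26, 7.61 and 8.21 in PCDNA3, 9.38, 9.67, 9.34 and 9.37 in A7, and 10.02, 10.13, 9.48 and 9.63 in G10. Every clone array was above every control array, with the smallest margin, 0.76, between A7 replicate 3 and A375 replicate 4. It rose by 1.34 (SE 0.11, adjusted p = 1.49e-06), with 1.15 in A7 and 1.53 in G10. PCDHB8 rose by 1.33 (SE 0.12, adjusted p = 2.29e-06), PCDHB9 by 1.29 (SE 0.13, adjusted p = 1.04e-05) and the pseudogene PCDHB17P by 1.17 (SE 0.10, adjusted p = 2.36e-06), and PCDHB9 was not held. The beta genes are similar in sequence, and the alpha genes share their last exons, so neither count is one of independent measurements. All 12 alpha genes measured were shared rises, with a median of 0.41, of which A7 had 0.14 and G10 0.65, and PCDHA1 alone was held.

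The promoters of 3 held beta genes, PCDHB5, PCDHB13 and PCDHB14, are shown because they were held rises from 1 cluster of genes, in which PCDHB13 and PCDHB14 are neighbours. They lie on the plus strand of GRCh38.p14 at chr5:141134956-141135205, chr5:141213669-141213918 and chr5:141223093-141223342. The capitals mark the longest run of bases that all 3 share, TGGTGGCGCT, 10 bases that were found on this strand in 7 of the 14 beta promoters that matched by symbol and in 17 of all 27305 promoters of the same length. These 3 genes were chosen after their values were seen.
PCDHB5: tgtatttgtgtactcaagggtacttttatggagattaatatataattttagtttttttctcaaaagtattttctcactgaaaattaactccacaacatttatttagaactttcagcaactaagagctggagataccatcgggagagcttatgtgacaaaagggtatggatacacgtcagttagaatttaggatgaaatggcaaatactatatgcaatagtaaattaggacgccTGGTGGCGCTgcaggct
PCDHB13: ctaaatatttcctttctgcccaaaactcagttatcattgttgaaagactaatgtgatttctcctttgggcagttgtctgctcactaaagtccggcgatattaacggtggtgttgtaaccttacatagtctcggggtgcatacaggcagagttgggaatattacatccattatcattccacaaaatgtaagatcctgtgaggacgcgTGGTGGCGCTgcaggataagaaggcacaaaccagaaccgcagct
PCDHB14: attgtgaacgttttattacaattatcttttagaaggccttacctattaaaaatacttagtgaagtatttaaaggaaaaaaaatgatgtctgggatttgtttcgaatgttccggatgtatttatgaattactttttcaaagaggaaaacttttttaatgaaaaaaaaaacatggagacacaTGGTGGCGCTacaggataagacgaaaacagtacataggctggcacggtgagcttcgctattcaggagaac

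**Figure D3:**
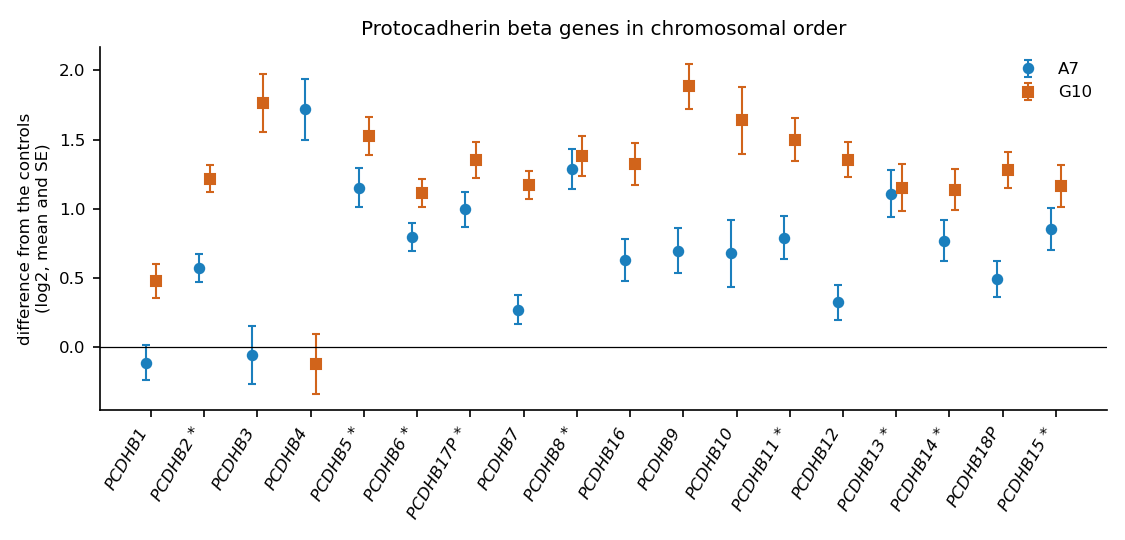
Log2 difference of A7 (circles) and of G10 (squares) from the control average, with standard errors, for the 18 protocadherin beta genes in their order along the chromosome. Asterisks mark the 9 held genes; both clones are above 0 except in PCDHB1 and PCDHB3 (A7) and PCDHB4 (G10), and the means of PCDHB1 and PCDHB4 were below the level of unexpressed genes in clones together and controls.

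Pigment genes rose in part. Of 24 melanin synthesis genes 6 were shared rises and none a shared fall (25% and 0%, block 1 and 0), and TYRP1 was held. SLC24A5, an ion exchanger of melanosomes, was lower in the clones together, by -1.81 (SE 0.18, adjusted p = 6.57e-06, and adjusted p = 0.436 with the block), but with 0.71 in A7 and at least 3.09 (measured -4.33) in G10 it was not shared. TYRP1 is an enzyme that oxidises an intermediate of melanin. Its log2 values were 4.99, 5.49, 5.41 and 5.00 in A375, 6.96, 6.31, 5.69 and 7.05 in PCDNA3, 8.47, 8.35, 8.0 and 8.03 in A7, and 7.44, 7.40, 7.51 and 7.41 in G10. The clone arrays were all above the controls, but PCDNA3 was itself above A375, so that the rise of G10 was 2.22 against A375 and 0.94 against PCDNA3. TYRP1 rose by 1.96 (SE 0.16, adjusted p = 1.41e-06). PMEL, the fibril protein of melanosomes, rose by 1.78 (SE 0.36, adjusted p = 0.00445, and adjusted p = 0.123 with the block) and MLANA, a melanosomal antigen, by 0.97 (SE 0.28, adjusted p = 0.0352, and adjusted p = 0.27 with the block), without being held. TYR, the first enzyme of melanin synthesis, had a difference of 0.98 that did not pass (adjusted p = 0.118).

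TYRP1 is shown for its match to TCATGTG, the M-box at which MITF is known to act, 145 to 139 bases before the start site on the plus strand at chr9:12693135-12693384 (GRCh38.p14).
TYRP1: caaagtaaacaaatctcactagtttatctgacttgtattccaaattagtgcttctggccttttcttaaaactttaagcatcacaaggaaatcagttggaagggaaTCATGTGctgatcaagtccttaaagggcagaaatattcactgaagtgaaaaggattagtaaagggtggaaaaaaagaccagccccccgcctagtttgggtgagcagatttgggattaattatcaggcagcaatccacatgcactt

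The 4 motifs were searched on both strands, where TGACNNNGC and TGANTCA overlapped in 127 of the 27305 promoters. Promoters were matched by symbol for 81 of the 109 genes that rose and for 39 of the 51 that fell. TGACNNNGC was in 6.17% of the former and 12.8% of the latter, against 11% of all promoters. For TGANTCA, the AP-1 site, the shares were 3.7% and 10.3% against 6.6%, for CACGTG 9.88% and 5.13% against 6.49%, and for TCATGTG 3.7% and 5.13% against 2.58%.

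The melanoma identity of the lines was checked on lineage markers. MITF, the master regulator of melanocytes, and SOX10 were well above the level of unexpressed genes, with differences that did not pass, of 0.03 (adjusted p = 0.93) and 0.06 (adjusted p = 0.744). All 10 melanocyte lineage markers with a value were above that level, 3 were shared rises and CSPG4, a surface proteoglycan of melanoma, changed by -0.72 (SE 0.09, adjusted p = 8.68e-05, and adjusted p = 0.228 with the block), most of it in G10 (-1.39, against -0.05 in A7). Of neural crest factors and receptors 6 of 24 were shared falls and 2 shared rises (8.33% and 25%, block 0 and 2). SNAI1, a zinc finger repressor of epithelial genes, was held at -0.62 (SE 0.09, adjusted p = 0.000433), and its relative SNAI2 fell by 0.55 and TWIST1 by 0.70. Of markers of other cells, 5 of 15 leukocyte, 4 of 10 endothelial, 6 of 10 epithelial and 8 of 10 fibroblast markers were above the level of unexpressed genes. Of all 18417 genes 13281 were above it. PTPRC and CD3D were below it, and none of the 35 leukocyte, endothelial and epithelial markers was held. COL1A2, a held fall, was the only one of 10 fibroblast markers to change.

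**Figure D4:**
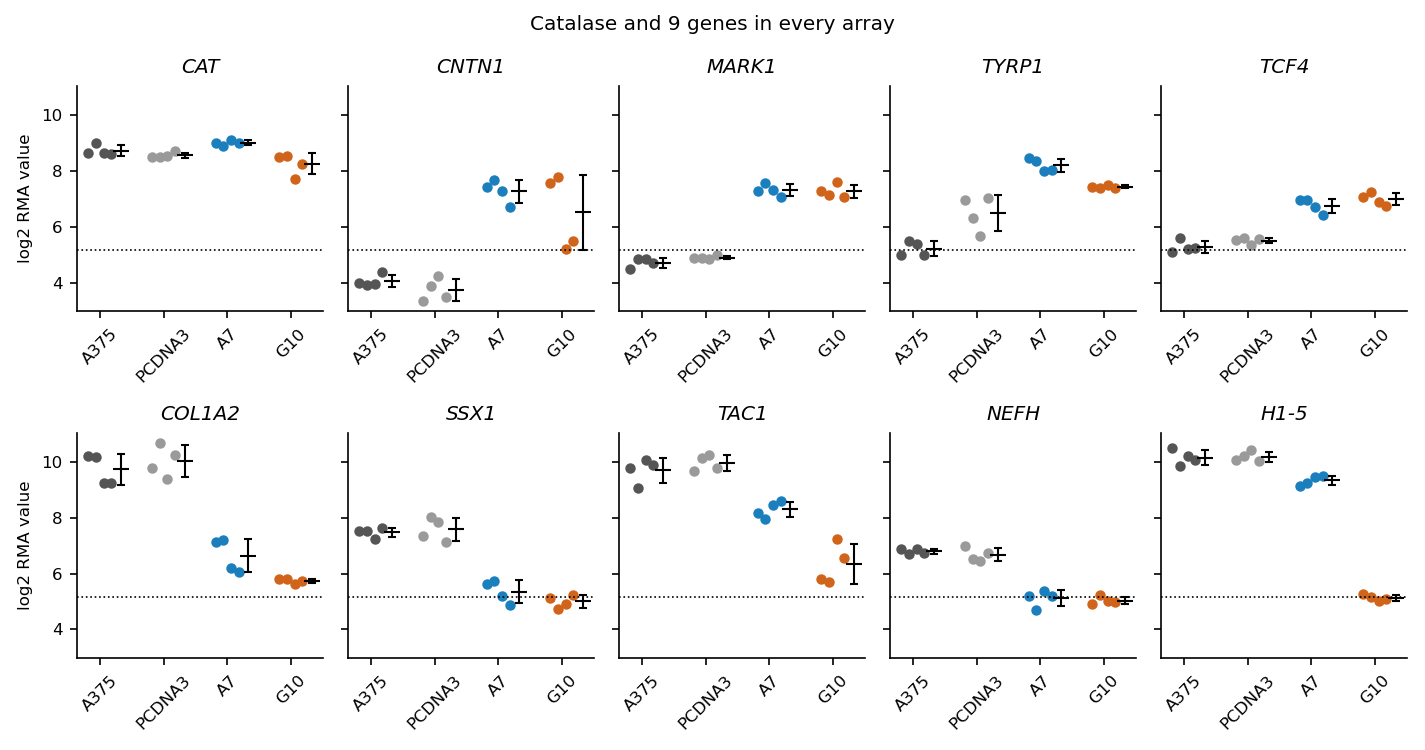
Log2 RMA values of all 16 arrays for CAT and 9 genes named in the text, with 1 point per array and the mean and SD of each line beside them. The dotted line is the level of unexpressed genes, 5.18; CAT overlaps between clones and controls, and for the 9 other genes no clone array overlaps a control array.

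About as many mitosis genes fell as did not pass, by small amounts. Of 41, 20 were shared falls and none a rise (0% and 48.8%, block 0 and 1), with a median of -0.40, of which A7 had -0.30 and G10 -0.47. CCNB2, cyclin B2, was the one held, at -0.64 (SE 0.09, adjusted p = 0.000189). PLK1, the polo-like kinase of mitosis, changed by -0.76 (SE 0.14, adjusted p = 0.00176, and adjusted p = 0.155 with the block), with -0.30 in A7 and -1.22 in G10, ANLN, the anillin of the contractile ring, by -0.64 (SE 0.16, adjusted p = 0.0128, and adjusted p = 0.189 with the block), and HMMR by -0.61 (SE 0.13, adjusted p = 0.00617, and adjusted p = 0.182 with the block). Of 43 S phase genes 8 were shared falls (0% and 18.6%, block 0 and 0), ORC1 and MCM7 of the replication origin among them with -0.55 and -0.53, and none was held. These counts move with single arrays and with the unit of the test. The mitosis falls were 33 without G10 replicate 4 and 15 without PCDNA3 replicate 1. In S phase the falls were 19 without G10 replicate 3, 15 without G10 replicate 4, and 5 without A375 replicate 1, 3 or 4, PCDNA3 replicate 2, 3 or 4, A7 replicate 1 or 2, or G10 replicate 1 or 2. CDKN1A, the p53-induced inhibitor of cyclin-dependent kinases, rose by 0.68 (SE 0.13, adjusted p = 0.00276, and adjusted p = 0.104 with the block), and 4 of 28 p53 targets were shared rises (14.3% and 0%, block 1 and 0), of which TNFRSF10B, a receptor of the death ligand TRAIL, was held at 0.55. The 4 were 2 without A375 replicate 3 or 4, A7 replicate 1 or 2, or G10 replicate 1 or 2.

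Genes listed for hydrogen peroxide removal were shared changes no less often than all genes. Of 35, CAT among them, 4 were shared rises and 2 shared falls (11.4% and 5.71%, block 1 and 0). None was held, where 0.592% of all genes were held rises and 0.271% held falls. The list also takes in genes around the removing enzymes, such as TXNIP, MSRA and GCLM, so its counts are not those of peroxide-removing enzymes alone. TXNIP, which binds and inhibits thioredoxin, rose by 1.0 (SE 0.17, adjusted p = 0.00118, and adjusted p = 0.179 with the block) and GPX7, a peroxidase of the endoplasmic reticulum, changed by -0.80 (SE 0.06, adjusted p = 8.65e-07, and adjusted p = 0.102 with the block), and in both most of the change was in G10 (1.64 and -1.43). MSRA, a methionine sulfoxide reductase, rose by 0.42 (SE 0.09, adjusted p = 0.00468, and adjusted p = 0.203 with the block). Superoxide dismutase SOD2 rose by 0.37 (SE 0.10, adjusted p = 0.0283, and adjusted p = 0.25 with the block). The 5 peroxiredoxins with a value did not pass, with differences of -0.10 for PRDX1, 0.19 for PRDX2, 0.03 for PRDX3, -0.12 for PRDX4 and -0.05 for PRDX6.

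Of 25 NRF2 targets, which include enzymes that make glutathione, 3 were shared falls and none rose (0% and 12%, block 0 and 0). HMOX1, heme oxygenase 1, changed by -0.79 (SE 0.20, adjusted p = 0.0177, and adjusted p = 0.317 with the block), with -0.91 in A7 and -0.66 in G10. GCLM, a subunit of the enzyme that makes the precursor of glutathione, changed by -0.47 (SE 0.11, adjusted p = 0.0129, and adjusted p = 0.246 with the block), with -0.51 in A7 and -0.43 in G10, and OSGIN1 by -0.36 (SE 0.07, adjusted p = 0.00418, and adjusted p = 0.15 with the block). Of 20 glutathione transferases 4 rose and none fell (20% and 0%, block 0 and 0), GSTO1 by 0.31 (SE 0.06, adjusted p = 0.00377, and adjusted p = 0.066 with the block) and GSTZ1 by 0.42 (SE 0.10, adjusted p = 0.0143, and adjusted p = 0.14 with the block) with no overlap between clone and control arrays. Of 30 peroxisome genes 7 rose and none fell (23.3% and 0%, block 2 and 0), with EHHADH, an enzyme of peroxisomal fatty acid oxidation, at 0.81 and the assembly factors PEX11A at 0.54 and PEX6 at 0.53, all larger in G10 than in A7. Of 10 metallothioneins 3 fell (0% and 30%, block 0 and 0), MT2A by 0.56 with -0.08 in A7 and -1.03 in G10, and 1 fell without PCDNA3 replicate 2. The NRF2 falls were 5 without G10 replicate 4. No gene of these 4 lists was held.

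Matrix, adhesion and motility genes were mixed. Of 29 integrins 4 fell and none rose (0% and 13.8%, block 0 and 0), with ITGA9 at -1.11 (SE 0.18, adjusted p = 0.000787, and adjusted p = 0.0994 with the block) and ITGA5, of the fibronectin receptor, at -0.54 (SE 0.09, adjusted p = 0.0012, and adjusted p = 0.0612 with the block). FN1, fibronectin, changed by -1.29 (SE 0.19, adjusted p = 0.000344, and adjusted p = 0.151 with the block), with -0.30 in A7 and -2.28 in G10. Among other matrix genes FBN2, fibrillin 2, and CCDC80 were held rises, FBN2 from at most 4.34 in the control arrays to between 4.75 and 5.68 in the clone arrays, and CCDC80 by 0.94. LAMB3, a beta chain of laminin, was held at 0.84. Of 37 matrix proteases and inhibitors 6 fell and 3 rose (8.11% and 16.2%, block 0 and 1), and MMP1, the collagenase, changed by -0.94 (SE 0.17, adjusted p = 0.00206, and adjusted p = 0.0813 with the block) with no overlap of clone and control arrays. Of 54 actin regulators 15 fell and 1 rose (1.85% and 27.8%, block 0 and 2) with none held. TIAM1, an activator of RAC, changed by -1.31 (SE 0.09, adjusted p = 1.43e-07), with -0.49 in A7 and -2.14 in G10, and MTSS1, RDX and DIAPH3 had values between -1.09 and -0.91 that were -0.28 to -0.14 in A7.

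Of 13 genes that present peptides on MHC class I, 6 were shared rises of small size and none fell (46.2% and 0%, block 2 and 0), with medians of 0.26 in A7 and 0.24 in G10. TAP1, a subunit of the transporter that carries peptides into the endoplasmic reticulum, had log2 values of 7.97, 8.29, 8.0 and 8.02 in A375, 8.26, 8.09, 8.37 and 8.45 in PCDNA3, 8.65, 8.63, 8.55 and 8.53 in A7, and 8.92, 8.98, 8.93 and 8.94 in G10. Every clone array was above every control array. It rose by 0.59 (SE 0.06, adjusted p = 2.01e-05), and PSME1, an activator subunit of the proteasome, rose by 0.49 (SE 0.08, adjusted p = 0.000501), PSMB9 by 0.46 (SE 0.12, adjusted p = 0.0155, and adjusted p = 0.144 with the block) and TAPBP by 0.41 (SE 0.08, adjusted p = 0.00245, and adjusted p = 0.106 with the block). None was held. Of 10 class II genes 9 were changed together but only 3 were shared (30% and 0%, block 0 and 0), and the median was 1.5 in G10 and -0.12 in A7.

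Of 46 cancer-testis genes 9 fell and 1 rose (2.17% and 19.6%, block 0 and 3), and SSX1 and MAGEB6 (at least 0.63, measured -0.74) were held. Of 480 zinc finger genes 35 rose and 30 fell (7.29% and 6.25%, block 1 and 8), and 6 were held falls and 1 a held rise. The rises were 21 without A375 replicate 3, 19 without A7 replicate 1 and 18 without A7 replicate 2. Of 71 axon guidance genes 5 rose and 6 fell (7.04% and 8.45%, block 2 and 3), with 1 held rise and 2 held falls. Of 28 immunoglobulin adhesion molecules 4 rose and 3 fell (14.3% and 10.7%, block 2 and 0), with 2 held rises. The lists that follow here had at most 1 held gene each. Of 33 MAPK output genes 6 fell and 1 rose (3.03% and 18.2%, block 0 and 1), with EGR3 held at -0.52. Of 41 genes of TGF-beta and activin 6 fell and 3 rose (7.32% and 14.6%, block 1 and 1). FST, follistatin, the antagonist of activin, changed by -1.29 (SE 0.21, adjusted p = 0.000858), with -1.02 in A7 and -1.55 in G10. Of 33 cytokines and chemokines, 14 of them above the level of unexpressed genes, 3 fell and 1 rose (3.03% and 9.09%, block 0 and 1). LIF was a held fall, at -1.18. Of 71 respiratory chain subunits 8 rose and none fell (11.3% and 0%, block 0 and 0), by 0.34 at most, and none was held, and they were 5 without A375 replicate 4, PCDNA3 replicate 3 or A7 replicate 1 and 15 when the clusters of a gene were averaged. Of 55 WNT genes 6 fell and 1 rose (1.82% and 10.9%, block 1 and 0), with FZD7 at -1.13 and WNT5A at -1.0. FZD3, which rose by 0.53, was the 1 called with the block (adjusted p = 0.0248 with the block).

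**Figure D5:**
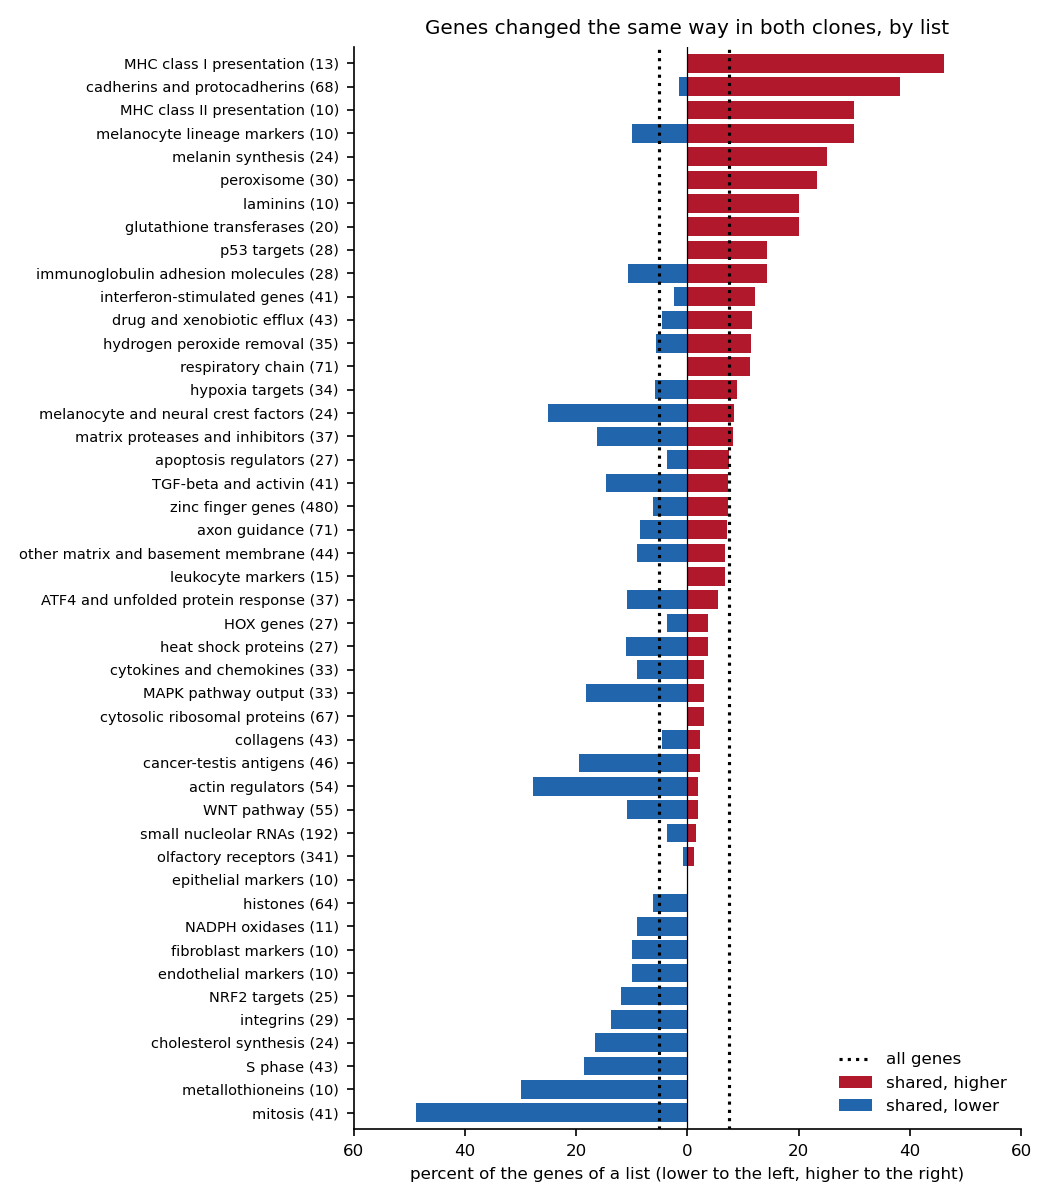
Share of the genes of each list, with the number of genes in parentheses, that were shared changes, in percent. These were changed in the clones together with both clones on the same side of the controls, higher to the right and lower to the left. The dotted lines are the shares among all genes, 7.48% and 5.17%; mitosis genes reach furthest to the left and MHC class I and cadherin genes furthest to the right.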

How the data were processed

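The 16 arrays measured total RNA of A375, PCDNA3, A7 and G10, with 4 arrays each. The values deposited by the authors, on the log2 scale, cover 33297 transcript clusters, and were made with RMA, which subtracts background, sets all arrays to 1 distribution and joins the probes of a cluster. That step was not repeated. For RMA and limma as the authors ran them, no version was found in the sources used. Array medians ran from 5.85 to 5.97, and the number of arrays and the signal above background limit the precision. Genes were named from the array's annotation where a cluster had 1 symbol (19460 clusters, 18417 genes), 1754 clusters had several and 12083 none, and 19429 of the clusters with 1 symbol were matched to RefSeq by gene ID. For the 769 genes with more than 1 cluster the lists used the one with the highest mean.

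In R 4.3.3 with limma 3.58.1, 1 mean per line was fitted over all arrays by lmFit and eBayes, with contrasts for the clones together, each clone, and the 4 line-against-line differences. Two-sided p values were adjusted within each contrast, over all clusters, by the Benjamini-Hochberg method. Named were CAT, the 15 held rises and 15 held falls with the largest smallest line-against-line difference, the 5 largest shared rises and falls, and up to 4 largest shared members of each list. Lineage markers, the peroxiredoxins, PCDHA1, PCDHB13, PCDHB14, CNTN3, SLC24A5, ENTPD1, GNAI1, TRAF1, TES and the genes named by chromosome were named for their role or after their values were seen. The members and the gene lists were chosen with earlier results of these data known, so no list is independent evidence, and the lists reported are described by counts beside the shares of all genes, without a set test. Promoters, from RefSeq (GRCh38.p14), were matched by symbol. The procedure was run on simulated arrays in which lines differed only by changes set in both clones. That run cannot show how the procedure treats lines that differ for other reasons. Alternatives were other limits, controls, scalings, variance models, a replicate block, the line as a random block or as the unit, and leaving out each array.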

Additional observations from a re-analysis of the deposited data

Results flagged for a closer look

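CAT and 32 genes with large held or shared changes were looked at for arrays far from their group and for differences between the clones. Dixon's limit for 4 samples marked 8 of 132 gene and line pairs, where chance marks about 1 in 20. CAT was marked in A375 replicate 2, at 9.03 beside 8.62 to 8.65 (gap over range 0.936), and in PCDNA3 replicate 4, at 8.71 beside 8.51 to 8.53 (0.875). AIG1 was marked in PCDNA3 replicate 3, at 5.57 beside 6.18 to 6.27 (0.870), and FGF14 in the same array, at 4.92 beside 4.17 to 4.22 (0.929). CLYBL was marked in A375 replicate 3, at 5.93 beside 6.16 to 6.19 (0.894), and CNTN1 in A375 replicate 4, at 4.39 beside 3.93 to 4.01 (0.839). G10 replicate 4 was marked for COCH, at 5.02 beside 4.76 to 4.80 (0.837), and for SH3BGRL2, at 6.40 beside 7.32 to 7.46 (0.865).

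The clones differed beyond the limma test of G10 against A7 (adjusted p under 0.05) in 11 of these genes, and sizes are minimums where 1 clone lay under the level of unexpressed genes. G10 was lower than A7 in H1-5 (by at least 4.16, measured -4.20), DCSTAMP (by at least 1.55, measured -2.95), TAC1 (-1.96), LIMCH1 (-1.37), EFNB2 (-1.19), TRIML2 (-0.94), CAT (-0.75) and SH3BGRL2 (-0.63). G10 was higher in ZNF724 (by at least 0.17, measured 1.87), PDE3A (1.67) and TAFA2 (1.25). DCSTAMP, a membrane protein of osteoclast fusion, and PDE3A, a phosphodiesterase, were among the largest shared changes, with measured differences of -2.52 and 2.16. The G10 mean of DCSTAMP, 3.78, was under the level of unexpressed genes, so part of its difference lies under that level. Neither gene was held: DCSTAMP in A7 differed from A375 by -0.57 (adjusted p = 0.389) and PDE3A in A7 from PCDNA3 by 1.22 (adjusted p = 0.0566).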

How the results depend on the processing

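The counts of changed (higher and lower), shared and held clusters depended on the limit. At an unadjusted p under 0.05 they were 4005 and 3794 changed, 3244 and 3309 shared, and 430 and 301 held. At an adjusted p under 0.001 they were 460 and 275, 401 and 238, and 20 and 8, with a log2 change of at least 1 added 103 and 78, 79 and 65, and 13 and 3, and at 1e-04 with at least 2 units 9 and 7, 9 and 7, and 3 and 2. By treat with a fold of 1.5 they were 70 and 55, 52 and 46, and 8 and 3. Without a line term 818 and 570 were changed, with the line as a random block 293 and 175 (204 of the 205 held clusters among them), and with 1 mean per line, added after seeing the data, 0 and 0. Array weights gave 2573 falls, 2226 shared falls, and 202 and 122 held. The 4 arrays of a number did not deviate together (24 pairs, r from -0.161 to 0.230, 3 of them over 0.1, and 4 of 16 arrays closest to their own number), and a replicate block gave 2017 and 1463 changed, 1712 and 1282 shared, and 125 and 56 held. The mitosis falls, 20, were 16 after median centring and 33 with array weights, and the S phase falls, 8, were 24 with array weights and 13 when the clusters of a gene were averaged.

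Leaving out 1 array at a time gave 1654 to 2420 rises and 1198 to 1795 falls, 1393 to 2061 and 1054 to 1553 shared, and 96 to 147 and 40 to 83 held. Held falls were 40 without A7 replicate 1, 42 without A7 replicate 3 and 45 without A7 replicate 4. Of the 205 held clusters 136 to 188 stayed held when 1 array was left out, and all 205 stayed called in the combined comparison. The change of CAT, close to 0, turned its sign with PCDNA3 alone as control (0.0788), after median centring (0.0124) and with array weights (0.0791), and ranged from -0.0534 to 0.0830 when arrays were left out. With A375 alone as control MITF (-0.167), SOX10 (-0.0624) and PRDX3 (-0.00200), which did not pass, turned their sign too, and MITF ranged from -0.0522 to 0.132 when arrays were left out. Of the 195 genes other than CAT put through these settings, only these 3 turned. Genes near the olfactory receptor level have only limits.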

Other observations

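The share of held genes differed between chromosomes, without a test. Of the genes measured per chromosome, held rises made up 2.50% on chromosome 8 (16 of 639) and 2.43% on chromosome 5 (19 of 783), beside 0.592% of all genes, and 10 of the 19 were protocadherins. On chromosome 8 they include TNFRSF10B, IKBKB, a kinase of the NF-kappaB pathway, and WRN, a DNA helicase. Held falls made up 0.960% on chromosome 7 (8 of 833), beside 0.271% of all genes (50, counting each gene by its cluster with the highest mean). Shared changes were one-sided on several chromosomes, beside 7.48% rises and 5.17% falls of all genes. There were 24 rises and 130 falls of 833 genes on chromosome 7, and 22 and 96 of 1232 on chromosome 11, which carries CAT. On chromosome 17 they were 133 and 11 of 1067. Others were one-sided as well, such as chromosomes 4 (88 and 19 of 710), 6 (146 and 24 of 977) and 15 (16 and 42 of 576). No gene of chromosome 11 was held, of 1232 measured. Of 5 pairs of adjacent held genes 4 rose together, 3 of protocadherins and CYP39A1 with SLC25A27, and in 1 on chromosome 5 MEGF10, an engulfment receptor, rose by 2.09 (SE 0.17, adjusted p = 8.53e-07) and C5orf63 fell by at least 0.48, measured -1.07. On chromosome 7, PDK4, a kinase that switches off pyruvate dehydrogenase, rose by 1.93 (SE 0.13, adjusted p = 1.79e-07).

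Further held genes were outside every list. ENTPD1, an ectoenzyme that hydrolyses ATP, rose by at least 1.28 (measured difference 1.72, SE 0.09, adjusted p = 1.52e-08), and GNAI1, an inhibitory G protein subunit, by 1.41 (SE 0.12, adjusted p = 1.44e-06). TRAF1, an adaptor of TNF receptors, changed by -1.89 (SE 0.12, adjusted p = 1.25e-07) and TES, a focal adhesion protein, by -1.24 (SE 0.08, adjusted p = 1.46e-07). Among transporters ABCB1, the multidrug efflux pump, rose by 1.13 (SE 0.16, adjusted p = 0.000275), with 1.48 in A7 and 0.78 in G10, without being held.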
